A study of Sus scrofa with 6 samples.

Results

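The genes described here encode the coat proteins of caveolae and the proteins that shape, anchor and repair the transverse tubules (T-tubules) of the heart muscle cell. They were chosen by name, and 10 were asked for: the caveolins CAV1, CAV2 and CAV3, the cavins CAVIN1, CAVIN2 and CAVIN4, the junctophilin JPH2, and the membrane proteins BIN1, DYSF and EHD4. Of these, 9 were found by their symbol among 13288 listed genes. JPH2 was followed through 2 gene models without a symbol that lie inside its locus in RefSeq, the gene annotation of the same pig genome, Sscrofa11.1.

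The tissue was heart ventricle of male Tibetan minipigs, of which 3 were in the sham group and 3 in the group with descending aortic constriction (DAC), and its RNA was sequenced. Every animal had a thoracotomy. In the DAC group a suture narrowed the descending aorta, which raises the pressure against which the left ventricle pumps, and in the sham group it was not narrowed. Tissue from both groups was taken 12 weeks after surgery. The animals carried no engineered allele, their age is not given in the sources used here, and the labels do not say which ventricle was sampled.

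Caveolae are small flask-shaped pits of the plasma membrane, built by caveolins inside the membrane and by a coat of cavins beneath it. CAV1 and CAV2 are best known from endothelial cells, fibroblasts, smooth muscle and fat cells, whereas CAV3 is the caveolin of striated muscle. T-tubules are deep folds of the cardiomyocyte surface that bring L-type calcium channels close to the ryanodine receptors of the sarcoplasmic reticulum, at a junction called the dyad, and they are known to lose their order in failing hearts.

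The values are FPKM, sequenced fragments scaled by transcript length and by sequencing depth, so levels of different genes within a sample can be compared per length. Summed FPKM per sample lay between 281377 and 308771, and the 13 mitochondrially encoded genes took 24.0% to 25.3% of it in sham and 27.1% to 32.8% in DAC, the highest share being that of DAC replicate 5. Differences were tested by limma, a linear model fitted to all genes together, on log2(FPKM + 1), for the 11029 genes that reached 1 FPKM in 3 or more of the 6 samples. A gene was called at an unadjusted P under 0.05, the threshold of the study. In bulk tissue, fewer cells of a type and less RNA per cell cannot be told apart.

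None of the members was called in DAC against sham: 0 of the 9 that could be tested (CAVIN4 was too low, and JPH2 was counted by its longer model), while 8.51% of all genes tested were called, 3.25% higher and 5.27% lower in DAC. Mean log2 levels were higher in DAC for 4 members and lower for 5, and their median log2 fold change was -0.06, beside -0.02 over all genes tested. The sham and DAC values overlapped for each of the 9, whereas the groups did not overlap in 14.9% of all genes tested. The smallest Benjamini-Hochberg adjusted P among the members was 0.662 by limma, and over all genes it was 0.106, so that no gene of the table passed 0.05 after adjustment. Without sham replicate 1, 600 genes were called in place of 939. Leaving out the mitochondrially encoded genes and rescaling the rest changed the split of the calls from 358 higher and 581 lower to 500 higher and 407 lower. A two-sided exact permutation test of 3 animals against 3 cannot give a P under 0.1.

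Levels spanned a wide range. The longer JPH2 model was the highest, with a mean of 96.0 FPKM over the 6 samples, followed by EHD4 (52.2 FPKM), CAVIN1 (46.4 FPKM), CAV1 (39.4 FPKM), CAVIN2 (35.9 FPKM) and DYSF (29.1 FPKM). CAV2 (19.6 FPKM) and CAV3 (18.1 FPKM) came next, then BIN1 (4.34 FPKM), and CAVIN4 (0.425 FPKM) was the lowest. The steps from JPH2 to EHD4, from DYSF to CAV2, from CAV3 to BIN1 and from BIN1 to CAVIN4 were larger than the spread over samples, since the ranges of those neighbours did not overlap. EHD4, CAVIN1, CAV1, CAVIN2 and DYSF overlapped each with the next, as did CAV2 and CAV3, so their ranges do not fix the order of these neighbours. Within samples, EHD4 exceeded CAVIN1, CAVIN1 exceeded CAV1 and CAV1 exceeded CAVIN2 in 5 of 6 each. CAVIN2 exceeded DYSF in 3 of 6 and CAV2 exceeded CAV3 in 4 of 6. EHD4 and CAVIN1, with lowest values of 40.3 and 38.6 FPKM, lay wholly above DYSF, whose highest was 34.9 FPKM. CAV1 lay above 93.2% of listed genes, BIN1 above 49.6% and CAVIN4 above 5.28%.

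**Figure D1:**
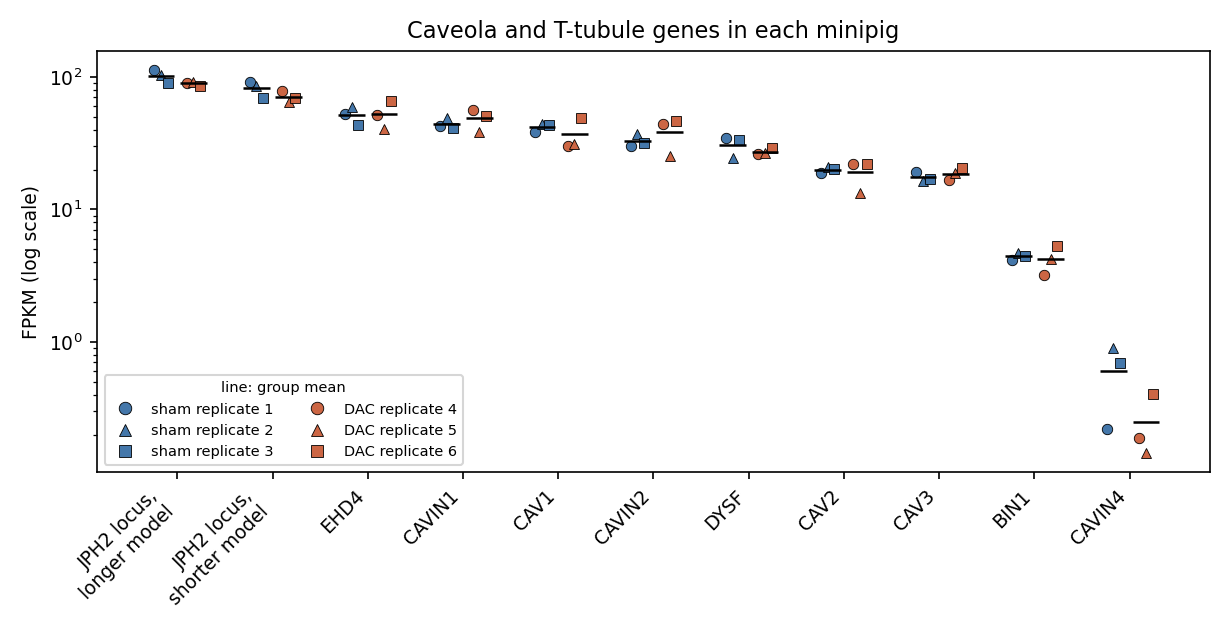
FPKM on a log axis of each caveola and T-tubule gene in each of the 6 minipigs, with sham in blue, DAC in red and a line at the group mean. The blue and red points overlap in every gene, and levels run from 113.0 FPKM for the longer JPH2 model in sham replicate 1 to 0.145 FPKM for CAVIN4 in DAC replicate 5.

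CAV1 (ENSSSCG00000016634, chr18:29649992-29682465), the scaffold of caveolae outside striated muscle, measured 38.5, 43.8 and 43.4 FPKM in sham replicates 1 to 3 and 30.3, 31.1 and 49.1 FPKM in DAC replicates 4 to 6. DAC replicates 4 and 5 lay below every sham sample and DAC replicate 6 above every sham sample. The means were 41.9 ± 2.96 and 36.9 ± 10.6 FPKM (SD, n = 3 each), a log2 fold change of -0.21 (SE 0.19, limma P = 0.306, adjusted P = 0.769, exact permutation P = 0.4). The 95% interval of that change, from -0.66 to 0.24, spans 36.9% lower to 18.2% higher FPKM + 1 in DAC. Without DAC replicate 6 the log2 fold change was -0.43 and passed the unadjusted threshold, in a fit that called 1000 of all 11029 genes tested.

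CAV2 (ENSSSCG00000016635, chr18:29699020-29707277), the partner with which CAV1 forms mixed oligomers, lies 16554 bases from CAV1 on the same strand. It measured 18.9, 21.0 and 20.0 FPKM in sham and 22.0, 13.3 and 22.2 FPKM in DAC. DAC replicates 4 and 6 lay just above every sham sample, and DAC replicate 5 was far below them all. Its log2 fold change was -0.09 (SE 0.20, 95% interval -0.55 to 0.37, limma P = 0.652, exact permutation P = 1.0), and it took the other sign, 0.14, without DAC replicate 5. CAV1 and CAV2 therefore shared their low value in DAC replicate 5 and their highest value in DAC replicate 6, but DAC replicate 4 was the lowest of all for CAV1 and above every sham sample for CAV2.

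CAV3 (ENSSSCG00000040643, chr13:65117776-65134066), the muscle caveolin found in both caveolae and T-tubules, had the narrowest range of the 3 caveolins over the 6 samples. It measured 19.1, 16.5 and 17.0 FPKM in sham and 16.6, 18.8 and 20.5 FPKM in DAC. The lowest sample was a sham and the highest a DAC animal, with the groups interleaved between them. Between the groups CAV3 differed by 0.08 on the log2 scale (SE 0.12, 95% interval -0.20 to 0.36, limma P = 0.520, exact permutation P = 0.6), an interval that spans 12.9% lower to 28.2% higher FPKM + 1. With a sample left out the value ran from 0.01 without DAC replicate 6 to 0.16 without DAC replicate 4, and neither was called.

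The ratio of CAV1 to CAV3 within a sample does not depend on how samples were scaled. It was 2.01, 2.65 and 2.55 in sham and 1.83, 1.65 and 2.40 in DAC. DAC replicates 4 and 5 had the lowest ratios, and the groups overlapped through DAC replicate 6 and sham replicate 1, at means of 2.41 ± 0.342 and 1.96 ± 0.390 (SD, n = 3 each). The 3 samples lowest in CAV1 were also the 3 lowest in the summed FPKM of 15 endothelial markers, which was 239.5, 333.7 and 344.5 in sham and 233.4, 212.4 and 309.6 in DAC. The part of endothelial RNA in the CAV1 values was not tested.

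CAVIN1 (ENSSSCG00000035446, chr12:20372476-20390242), also called PTRF, is the cavin without which caveolae do not form. It measured 42.3, 48.6 and 41.3 FPKM in sham and 56.8, 38.6 and 50.6 FPKM in DAC. DAC replicates 4 and 6 were above every sham sample and DAC replicate 5 was below them all. This gave a log2 fold change of 0.13 (SE 0.16, 95% interval -0.25 to 0.50, limma P = 0.455, exact permutation P = 0.6). With a sample left out the value ran from 0.0075 without DAC replicate 4 to 0.28 without DAC replicate 5, and neither was called.

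CAVIN2 (ENSSSCG00000026618, chr15:96474267-96490016), also called SDPR, helps to set membrane curvature and is abundant in endothelium. It measured 30.1, 37.3 and 31.8 FPKM in sham and 44.0, 25.4 and 46.6 FPKM in DAC, with DAC replicates 4 and 6 above and DAC replicate 5 below every sham sample, as for CAVIN1. The means were 33.1 ± 3.76 and 38.7 ± 11.5 FPKM (SD, n = 3 each), with a log2 fold change of 0.18 (SE 0.23, limma P = 0.466, adjusted P = 0.847, exact permutation P = 0.4). Its 95% interval, from -0.37 to 0.72, was the widest of the members and reached 64.9% higher FPKM + 1. Without DAC replicate 5 the log2 fold change was 0.45 and passed the unadjusted threshold, in a fit that called 955 of all 11029 genes tested.

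CAVIN4 (ENSSSCG00000037954, chr1:242259719-242320047), also called MURC, is the cavin of muscle cells. It was listed at 0.219, 0.899 and 0.691 FPKM in sham and at 0.190, 0.145 and 0.407 FPKM in DAC, below 1 FPKM in every sample and so outside the test. DAC replicates 4 and 5 were the lowest, and sham replicate 1 lay between them and DAC replicate 6. A fit with no minimum FPKM gave a log2 fold change of -0.34 (SE 0.19, limma P = 0.108, exact permutation P on FPKM = 0.2), with a pseudocount of 1 that exceeds each of the values.

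The level of CAVIN4 carries a further limit. The gene model in the table is 60329 bases long, whereas CAVIN4 in RefSeq spans 9961 bases, and 50160 bases of the model lie inside the RefSeq gene TMEFF1, which covers chr1:242214955-242309878. The listed gene MSANTD3-TMEFF1, at 4.41 to 7.84 FPKM, overlaps the same stretch. The values of CAVIN4 are therefore uncertain, both per length and in the reads that were assigned to it, and the ratio of CAVIN1 to CAVIN4, from 54.1 to 299.4 over the 6 samples, has the same limit.

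EHD4 (ENSSSCG00000020666, chr1:129374613-129458686) belongs to the EHD ATPases, which remodel membranes in endocytic traffic and at the necks of caveolae. It measured 52.8, 59.0 and 43.5 FPKM in sham and 51.9, 40.3 and 66.1 FPKM in DAC. The lowest and the highest of the 6 were both DAC animals, replicates 5 and 6. The group means differed by a log2 fold change of 0.01 (SE 0.20, 95% interval -0.46 to 0.48, limma P = 0.963, exact permutation P = 1.0), and its sign changed when sham replicate 3 (-0.11) or DAC replicate 6 (-0.16) was left out.

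JPH2 tethers the T-tubule to the sarcoplasmic reticulum and holds the dyad together. Its RefSeq locus, chr17:46590302-46665326, overlaps no other RefSeq gene and contains both models used for it. Neither model spans the whole locus, so the level of JPH2 per length, and its rank among the members, are uncertain. The longer one (ENSSSCG00000007369, chr17:46591675-46638070) measured 113.0, 104.1 and 90.4 FPKM in sham and 90.4, 91.9 and 86.0 FPKM in DAC. Sham replicates 1 and 2 were above every DAC sample, and sham replicate 3 lay among them.

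The means of the longer JPH2 model were 102.5 ± 11.4 FPKM in sham and 89.5 ± 3.07 FPKM in DAC (SD, n = 3 each), a log2 fold change of -0.19 (SE 0.11, 95% interval -0.46 to 0.08, limma P = 0.142, adjusted P = 0.662, exact permutation P = 0.3). The shorter model (ENSSSCG00000031692, chr17:46663461-46664808) measured 91.3, 85.3 and 69.5 FPKM in sham and 77.8, 64.6 and 69.2 FPKM in DAC. Here sham replicates 1 and 2 again exceeded all DAC samples, with a log2 fold change of -0.21 (SE 0.14, limma P = 0.168, exact permutation P = 0.2). Both models lie in the same gene and were measured in the same libraries, so they are not independent readings of JPH2. Without sham replicate 1 the changes of the longer and the shorter model were -0.12 and -0.13, and after quantile normalization -0.11 and -0.12. The ratio of the longer to the shorter model was 1.16 to 1.42 over the 6 samples, with overlapping groups.

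BIN1 (ENSSSCG00000015720, chr15:25328674-25383652), a BAR-domain protein that bends the T-tubule membrane and helps to deliver L-type calcium channels to it, was much lower than JPH2. It measured 4.12, 4.68 and 4.46 FPKM in sham and 3.20, 4.21 and 5.34 FPKM in DAC. The narrow sham range lay inside the DAC range. BIN1 had a log2 fold change of -0.06 (SE 0.16, 95% interval -0.44 to 0.31, limma P = 0.699, exact permutation P = 0.8), and without DAC replicate 4 it was 0.09. JPH2 by its longer model stood 20.3- to 27.4-fold above BIN1 in sham and 16.1- to 28.2-fold above it in DAC. That model covers only part of the JPH2 locus, so the ratio may not be that of the whole gene.

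DYSF (ENSSSCG00000008312, chr3:71020141-71246967) encodes dysferlin, a ferlin that acts in calcium-triggered membrane resealing and is found at T-tubules. It measured 34.9, 24.3 and 33.2 FPKM in sham and 26.4, 26.5 and 29.2 FPKM in DAC. Sham replicates 1 and 3 were above every DAC sample and sham replicate 2 was below them all. For DYSF the log2 fold change was -0.15 (SE 0.15, 95% interval -0.51 to 0.21, limma P = 0.351, exact permutation P = 0.4). Without sham replicate 2 it was -0.31 and passed the unadjusted threshold, in a fit that called 1029 of all 11029 genes tested.

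**Figure D2:**
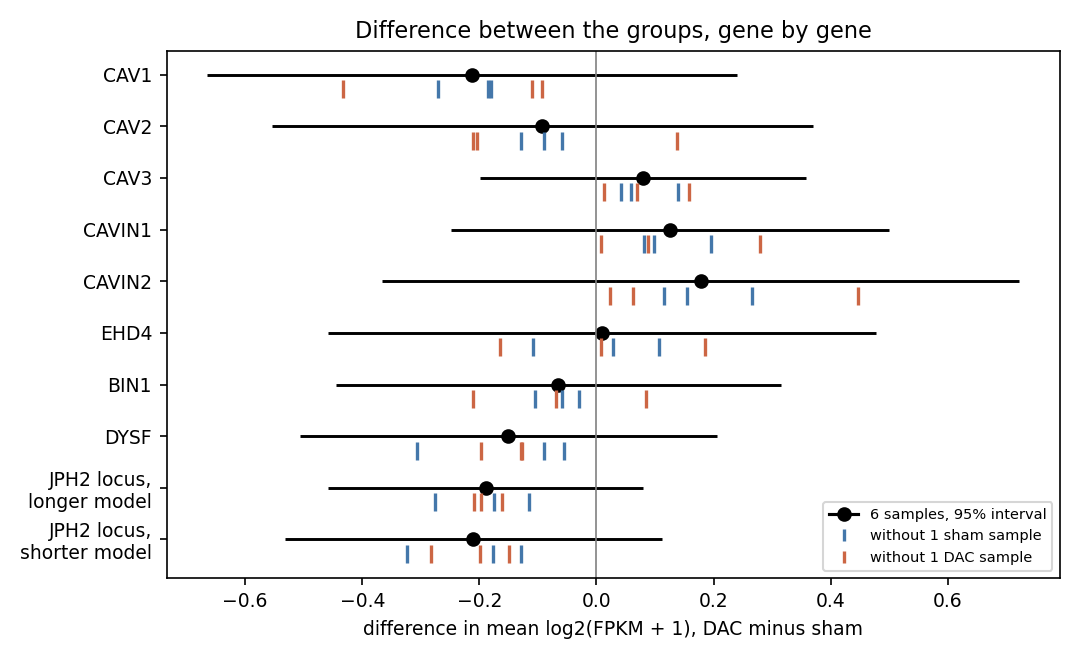
Difference in mean log2(FPKM + 1), DAC minus sham, for each gene with its 95% interval from limma (black), and the same difference with 1 sham (blue tick) or 1 DAC sample (red tick) left out. All intervals include 0, and single samples shift CAV1 to -0.43, CAVIN2 to 0.45 and DYSF to -0.31.

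The DAC animals differed more among themselves than the sham animals in most members. The SD of log2(FPKM + 1) was larger in DAC for 7 of 9 members, all but DYSF and JPH2, beside 58.5% of all genes tested. Its median over the members was 0.12 in sham and 0.30 in DAC, and over all genes tested 0.14 and 0.17. These shares and medians are a description, since the members were measured in the same 6 libraries.

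DAC replicates 5 and 6 often took opposite positions. DAC replicate 6 was the highest of the 6 samples for 6 of 9 members (CAV1, CAV2, CAV3, CAVIN2, EHD4 and BIN1), while it was the highest for 17.6% of all genes tested. DAC replicate 5 was the lowest for 4 of 9 (CAV2, CAVIN1, CAVIN2 and EHD4), while it was the lowest for 23.6% of all genes tested, and it was the highest for 0 of 9. DAC replicate 5 also had the largest mitochondrial share, 32.8%, and the smallest sum of endothelial markers. The part of either in these values was not tested. The FPKM of the members, summed with JPH2 as its longer model, was 353.9, 360.2 and 325.9 in sham and 341.8, 290.3 and 376.1 in DAC.

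**Figure D3:**
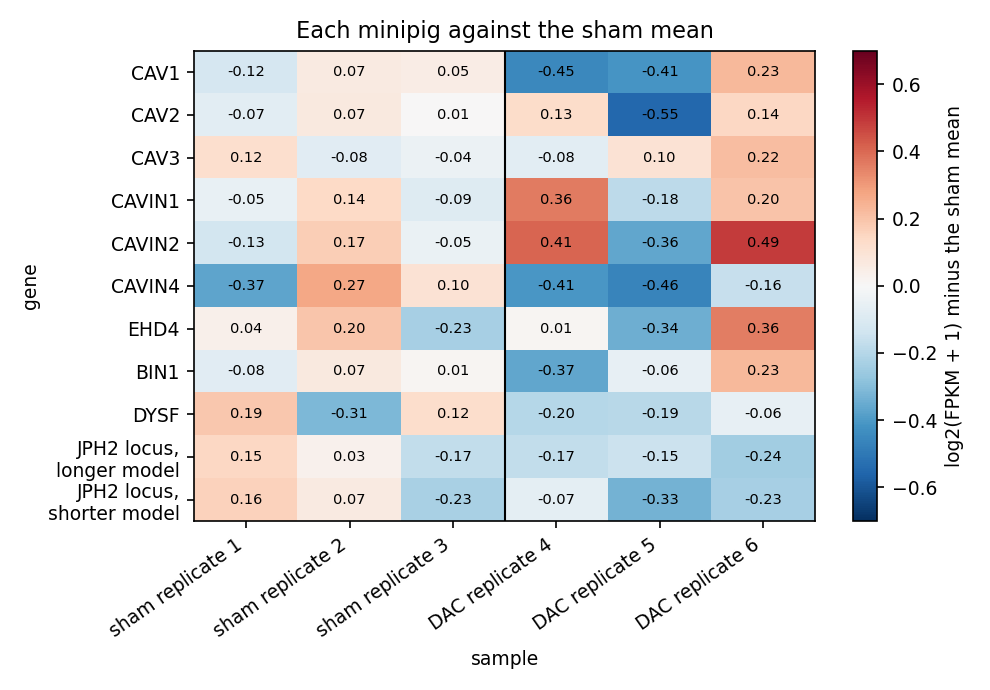
Log2(FPKM + 1) of each gene in each minipig minus the mean of the 3 sham samples, with blue below and red above that mean. DAC replicate 6 is red and DAC replicate 5 is blue for CAV1, CAV2, CAVIN1, CAVIN2 and EHD4, whereas both JPH2 models are blue in all 3 DAC animals.

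Some genes followed a member closely over the 6 samples. By the root mean square difference of centred log2(FPKM + 1), the genes most like CAV1 were ESYT2 (0.02), TAP2 (0.05) and P4HA2 (0.05), against a root mean square deviation of 0.25 for CAV1 itself. ESYT2 measured 29.4, 34.8 and 32.7 FPKM in sham and 23.6, 24.2 and 38.2 FPKM in DAC, with DAC replicates 4 and 5 low and DAC replicate 6 high, as for CAV1. The nearest to CAV3 were NFATC2 (0.03), POPDC3 (0.04) and ZBTB8OS (0.04), against 0.11 for CAV3. The nearest to the longer JPH2 model were STYXL1 (0.03), RXRA (0.03) and DHX37 (0.03), against 0.14. These genes were picked out of 11029 by 6 values each, and the likeness was not tested.

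Genes known to work beside the members were followed in 3 lists written from general knowledge. In the list of caveola-associated genes (other cavin and EHD proteins, dynamin, flotillins, and receptors, channels and enzymes found in caveolae), 0 of 28 tested genes were called higher and 3 lower in DAC, beside 3.25% higher and 5.27% lower (8.51% in all) over all genes tested. The mean was lower for 21 of the 28, and the median log2 fold change was -0.11, beside -0.02 over all genes tested. Among the 3 that fell were ADRB1 and NOS3. Without sham replicate 3, 1 gene of the list was called in place of 3, and the same number with each gene's own variance on FPKM.

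ADRB1, the main beta-adrenergic receptor of the heart muscle cell, measured 34.1, 32.0 and 27.0 FPKM in sham and 20.3, 18.8 and 24.1 FPKM in DAC. All 3 DAC samples were below every sham sample. The log2 fold change was -0.54 (SE 0.14, limma adjusted P = 0.482), and ADRB1 kept its call under each of 15 alternative settings, with values from -0.64 to -0.47 when samples were left out.

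NOS3, the endothelial nitric oxide synthase that CAV1 binds, measured 7.29, 11.5 and 16.6 FPKM in sham and 6.31, 7.15 and 7.56 FPKM in DAC. The DAC samples were close together, and sham replicate 1 lay among them. The log2 fold change was -0.61 (SE 0.26, limma adjusted P = 0.585), and NOS3 was called under only 4 of 15 alternative settings. With all samples kept, the call was lost by median scaling, quantile normalization, leaving out the mitochondrially encoded genes, each gene's own variance and sample weights. It was also lost when any sample but sham replicate 1 was left out. Without sham replicate 3 the log2 fold change was -0.35.

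The T-tubule and dyad list held 32 tested genes, of which 0 were called higher and 4 lower in DAC, beside the same 3.25% and 5.27% over all genes tested, with a median log2 fold change of -0.08. Of its means, 13 were higher and 19 lower, and over the alternative settings the median of the list ran from -0.10 to -0.02. Among the 4 that fell were RYR2, the calcium release channel of the sarcoplasmic reticulum (365.9 to 273.6 FPKM, log2 fold change -0.41), KCNE1, a potassium channel subunit (61.2 to 45.8 FPKM, -0.42), and SRL, a calcium-binding protein of the reticulum (195.6 to 157.5 FPKM, -0.32). Their limma adjusted P lay between 0.553 and 0.585. SRL overlaps the listed gene ADCY9, and reads of the overlap may be shared.

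The direction of these calls depended on the processing. With all samples kept, 1 gene was called higher and 1 lower after quantile normalization, 1 higher and 2 lower without the mitochondrially encoded genes, 2 higher and 1 lower with each gene's own variance on log2 values or on FPKM, and 1 higher and 4 lower with sample weights. RYR2 lost its call under the first 4 of these settings, SRL under the first 2 and KCNE1 under both own-variance fits. The count also rested on single animals. Without sham replicate 1 none of the 32 was called, without sham replicate 3 the count was 2, and without DAC replicate 5 it was 1, a gene higher in DAC. RYR2, KCNE1 and SRL each lost their call without sham replicate 1 and again without DAC replicate 5, when RYR2 stood at -0.30 in both fits. The partner of JPH2 in the family, JPH1, measured 49.0 ± 4.91 FPKM in sham and 45.2 ± 2.91 FPKM in DAC (SD, n = 3 each) and was not called. The L-type calcium channel subunit CACNA1C, whose channel faces RYR2 across the dyad, measured 48.1 ± 7.38 and 41.8 ± 2.06 FPKM and was not called either. Both are named after their values were seen.

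The membrane repair list, which holds the annexins, calpains and other proteins that work with dysferlin, had 21 tested genes, with 3 called higher and 1 lower in DAC, against 3.25% and 5.27% of all genes tested, and a median log2 fold change of 0.05. S100A11, a calcium-binding partner of annexins, measured 4.50, 4.15 and 3.36 FPKM in sham and 6.18, 10.7 and 7.17 FPKM in DAC. All 3 DAC samples lay above every sham sample, with a log2 fold change of 0.83 (SE 0.20, limma adjusted P = 0.473). MYOF, the ferlin most closely related to DYSF, measured 1.53, 2.73 and 2.23 FPKM in sham and 3.42, 3.81 and 3.36 FPKM in DAC, again without overlap.

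The log2 fold change of MYOF was 0.54 (SE 0.16, limma adjusted P = 0.505), so that the rise was called for MYOF while DYSF, at -0.15, was not called. The difference between these changes was not tested. S100A11 and MYOF kept their calls whichever sample was left out. ANXA2, an annexin of the repair machinery, measured 9.14, 10.3 and 12.1 FPKM in sham and 11.4, 15.4 and 20.6 FPKM in DAC and rose with a log2 fold change of 0.52 (limma adjusted P = 0.584), with DAC replicate 4 inside the sham range. SMPD1, the acid sphingomyelinase, fell from 60.1 ± 10.1 to 46.8 ± 4.10 FPKM (SD, n = 3 each), with a log2 fold change of -0.34 (limma adjusted P = 0.586). Each of these last 2 calls was lost in 4 of the 6 fits with a sample left out, among them those that left out sham replicate 1 or DAC replicate 5, in which the list held 2 calls in place of 4. With all samples kept, ANXA2 lost its call with each gene's own variance on either scale. SMPD1 was called under 4 of 15 alternative settings and lost its call at a minimum of 5 FPKM, under every other scaling of the samples, with its own variance and with sample weights.

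**Figure D4:**
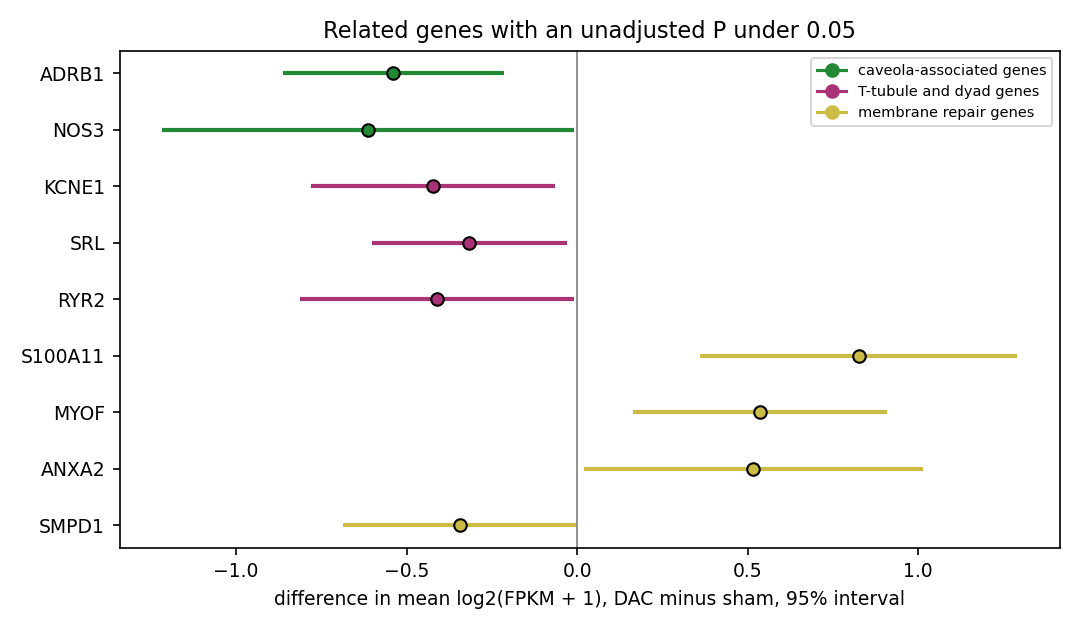
Difference in mean log2(FPKM + 1), DAC minus sham, with its 95% interval from limma, for the called genes that the text names from the caveola-associated, T-tubule and dyad, and membrane repair lists. ADRB1, NOS3, KCNE1, SRL, RYR2 and SMPD1 lie below 0, and S100A11, MYOF and ANXA2 lie above it.

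Markers of the cell types that the tissue could hold were measured beside these genes. Cardiomyocyte markers summed to 17364 to 18207 FPKM in sham and 16530 to 19573 FPKM in DAC, and of 12 tested genes RYR2 alone was called. The 7 skeletal muscle markers were not analysed here. Of 15 endothelial markers, 4 were called lower (CLDN5, log2 fold change -1.22, VWF, -0.49, FLT1, -0.44, and ROBO4, -0.75) and 2 higher (KDR, 0.60, and EMCN, 0.39), with a median of -0.22. Over all genes tested the shares were 5.27% lower and 3.25% higher. The other 9 markers were not called, among them PECAM1 (-0.26) and CDH5 (-0.22), named after their values were seen. Of the 15 means, 4 were higher and 11 lower. FLT1 lost its call without sham replicate 2 or 3 and ROBO4 lost it without DAC replicate 5. With all samples kept, ROBO4 also lost its call with each gene's own variance on log2 values or on FPKM. CLDN5 lost its call with each gene's own variance on FPKM. KDR and EMCN, each called under 9 of the alternative settings, are named after their values were seen.

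Of 12 fibroblast markers 5 were called higher and 0 lower, beside 3.25% higher and 5.27% lower over all genes tested. The calls were led by COL1A2 (log2 fold change 0.59), COL1A1 (0.81), POSTN (0.71) and COL3A1 (0.46). The other 7 were not called, among them DCN (-0.01), TCF21 (-0.02) and PDGFRA (0.24), named after their values were seen. Of the 12 means, 9 were higher and 3 lower. The summed FPKM of the list was 604.2 to 696.9 in sham and 820.5 to 955.5 in DAC. That sum includes the called collagens, of which COL3A1 went from 172.7 to 238.4 and COL1A1 from 94.0 to 165.4 FPKM on average. Of 13 smooth muscle and pericyte markers, CNN1 was called higher (0.60) and SMTN lower (-0.26), calls that were lost when single samples, among them sham replicate 1 or DAC replicate 5, were left out, and the sums overlapped at 278.6 to 316.4 and 285.4 to 328.9 FPKM. CD163, a macrophage marker, was called lower (-0.43) among 5 tested leukocyte markers, whose listed genes summed to 41.0 to 43.0 FPKM in sham and 34.0 to 47.0 FPKM in DAC. Of the 5 means, 3 were higher and 2 lower in DAC. Another marker of this list, CD68, named after its value was seen, was at 0.50 and was not called. No adipocyte marker of 4 tested was called, the smallest P being those of PLIN4 (log2 fold change -0.39, limma adjusted P = 0.627) and LPL (-0.40, limma adjusted P = 0.651). Of the 4 means, 3 were lower in DAC and 1 higher, that of FABP4 (0.54), named after its value was seen. PLIN4 was called without sham replicate 3 (-0.57) and LPL without sham replicate 2 (-0.65), and without sham replicate 1 they were at -0.18 and -0.17. The red cell marker HBB ranged from 5.86 to 38.0 FPKM with both groups spread over it. PLIN4, COL3A1, POSTN and CNN1 each overlap another listed gene, so their values may include its reads. CAV1, CAV2, CAVIN1 and CAVIN2 are known from several of these cell types, and the part of cell composition in their values was not tested.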

How the data were processed

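The authors deposited FPKM for each gene and minipig, made from RNA of 6 ventricular samples, and the submitters' processing notes name HISAT2 and the build susScr11 (Sscrofa11.1). The quantification program, the annotation, the use of strand and the handling of reads shared between genes are not given in the sources used here. FPKM do not give read numbers, so the depth is unknown and precision rests on the spread between animals.

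Groups followed the labels. Log2(FPKM + 1) was compared by limma 3.58.1 in R 4.3.3, with a trend of variance over the mean, for genes with at least 1 FPKM in 3 or more samples. Genes were called at an unadjusted two-sided P under 0.05, as in the study, and adjusted P used the Benjamini-Hochberg method over all genes tested. The permutation tests and figures used Python 3.11.15, scipy 1.17.1 and matplotlib 3.10.9. Symbols came from the deposited table. Of 2440 genes that had none there, 520 took one from a list that pairs pig gene identifiers with symbols. Positions are those of the table. JPH2 models were matched by position to RefSeq on the same build.

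The members, the lists of caveola-associated, T-tubule and dyad, and membrane repair genes, and the marker lists (cardiomyocyte, endothelial, smooth muscle and pericyte, fibroblast, adipocyte, leukocyte, red blood cell, skeletal muscle) were chosen with earlier results of these data known. DNM2 is in both of the first 2 lists. Of the genes written in the lists, TFPI, SPEG, KCNJ12, TRIM72, AHNAK2, FER1L5, PDCD6IP and some markers, among them MYH6, TTN and PLN, were not analysed here. Named were all members, every called gene of a list (the 4 with the smallest P where there were more, the 2 with the smallest P where there were none), and the 3 genes nearest to CAV1, CAV3 and JPH2, with exceptions stated. Some called genes of the lists are counted but not reported here by name.

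The alternatives were no minimum or one of 5 FPKM, a pseudocount of 0.1, median scaling, quantile normalization, leaving out the mitochondrially encoded genes, the variance of each gene on its own on log2 values or FPKM, sample weights, P under 0.01 and each sample left out. On simulated data for DAC against sham with 11029 genes, of which 200 were changed, the test called 154 at a log2 change of 0.5 and 192 at 1.0. Of the unchanged genes, 4.91% and 5.29% were called. Values were drawn for each gene on its own, without shifts shared by the genes of a sample. The changed genes were picked at random, so these counts do not give the share of calls to be had for the members.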

Additional observations from a re-analysis of the deposited data

How the results depend on the processing

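The groups were made of different minipigs, so no paired analysis was possible. The 9 tested members gave 134 values under the alternatives, of which 127 kept their direction and their side of 0.05. With a sample left out, the sign turned for CAV2 (-0.21 to 0.14, above 0 without DAC replicate 5), EHD4 (-0.16 to 0.19, below 0 without sham replicate 3, at -0.11, or DAC replicate 6) and BIN1 (-0.21 to 0.086, above 0 without DAC replicate 4). The count of members called was 0 under every setting that kept all samples and 0 to 1 with a sample left out, the single calls being CAV1 without DAC replicate 6, CAVIN2 without DAC replicate 5 and DYSF without sham replicate 2. The same fits called 1000, 955 and 1029 of all 11029 genes tested, in that order. BIN1 has no value at a minimum of 5 FPKM, and CAVIN4 has one only with no minimum.

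Over all genes, 939 were called (358 higher, 581 lower), 579 at a minimum of 5 FPKM (165 higher, 414 lower), 218 at P under 0.01, and 600 to 1029 with a sample left out. The split was 429 higher and 479 lower after median scaling, 418 and 469 after quantile normalization, and 500 and 407 without the mitochondrially encoded genes. The caveola-associated list had 3 calls, 1 with the variance of each gene on FPKM, and 1 to 4 with a sample left out. The T-tubule and dyad list had 4 calls, 2 after quantile normalization, and 0 to 5 with a sample left out. The membrane repair list had 4 calls, 2 at a minimum of 5 FPKM, 2 with each gene's own variance on log2 values or on FPKM, and 2 to 4 with a sample left out. Among the named list and marker genes, 291 of 372 values kept their direction and call, 76 lost the call and 2 gained it. The sign of HBB turned with sample weights (0.16) and without sham replicate 2 or DAC replicate 5 (-0.73 to 0.52 over samples left out). Apart from the change in genes or samples tested, the cause was not tested. With 3 animals a group, the median standard error over all genes was 0.14 on the log2 scale.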
